A study of Mus musculus with 15 samples.

Results

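Mutant thymocytes that carry CD8 were compared with normal helper-lineage thymocytes across all expressed genes. The mutant cells were mature CD8 single-positive (SP) cells of the genotype Thpok fl/fl Runx3 fl/dYFP Cd4-Cre+ Thpok-RKF-, and the normal cells were wild-type (WT) CD4 SP cells. The libraries were taken by population and genotype: 3 mutant and 3 WT CD4 SP libraries, 6 of the 15 libraries of the study. Both groups were C57BL/6 cells sorted from the thymus of mixed bone marrow chimeras, in which irradiated CD45.1+ B2m-/- hosts received a mixture of mutant and WT marrow. B2m-/- mice lack the light chain of MHC class I. WT cells were CD45.1+CD45.2+ and mutant cells CD45.2+, and every gate was CD44lo TCRbhi CD24lo CD69lo. WT CD4 SP cells were further gated as CD4+CD8- and mutant cells as CD4-CD8+. Values of WT CD8 SP cells, CD45.1+CD45.2+ cells in the gate of the mutant cells but from I-Ab-/- hosts, which lack MHC class II, are set beside them. The other 2 groups, mutant CD4+CD8+ cells with or without Thpok-RKF, served only in the shared estimate of the spread and for a few values.

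Thymocytes whose receptor recognises MHC class II normally become CD4 helper cells, and those that recognise MHC class I become CD8 cytotoxic cells. Thpok, the zinc finger factor encoded by Zbtb7b, is needed for the helper choice, and Runx3 is the Runt-domain factor that silences Cd4 and promotes the cytotoxic choice. Cre driven by Cd4 elements acts from the double-positive thymocyte stage on. The labels do not spell out what Thpok-RKF is or what the dYFP allele carries, nor do they say whether the libraries of a group came from separate animals or whether WT and mutant cells came from the same thymus. The p-values below therefore measure the spread between these libraries, which may be technical. WT and mutant cells also came from different marrow donors, so an effect of the listed alleles and any other difference between donors cannot be told apart. Differences between mutant and WT CD8 SP cells further coincide with the host (B2m-/- against I-Ab-/-), so host and genotype cannot be told apart there.

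Gene totals of the 6 libraries ran from 43509770 to 48568643 counts. Reads in no annotated gene made up 7.74%, 5.89% and 5.09% of all reads counted in the WT CD4 SP libraries and 9.93%, 8.86% and 7.23% in the mutant libraries. The mutant libraries were on average higher, and in all 5 groups of the study the library numbered 1 was the highest. The part of this share in the results was not tested. Levels are CPM, the counts scaled to a fixed number of reads in genes, scaled for library composition and given in the order of libraries 1, 2 and 3. Values in brackets after levels are the log2 fold change, mutant CD8 SP minus WT CD4 SP unless stated, ± its standard error (SE). A gene is called when its adjusted p in the edgeR quasi-likelihood test is under 0.05.

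The genes that the genotype or the gate addressed were read first. Zbtb7b was at 64.0, 79.2 and 27.4 CPM in WT CD4 SP and at 2.11, 2.51 and 1.92 CPM in mutant CD8 SP cells (-4.70 ± 0.36, adjusted p = 6.37e-07). All 3 mutant libraries were low, and all 3 were above the 0.239, 0.376 and 0.0933 CPM of WT CD8 SP cells (3.21 ± 0.50, adjusted p = 3.47e-04 against these). Runx3 was at 30.8, 32.4 and 23.1 CPM in WT CD4 SP and at 306, 247 and 247 CPM in mutant cells (3.21 ± 0.16, adjusted p = 8.33e-09). WT CD8 SP cells had 220.2, 202 and 194 CPM (difference 0.38 ± 0.14, adjusted p = 0.0892). By reads per gene, every mutant library was above the WT CD8 SP range for Runx3, and this difference was not called. Which part of Runx3 and Zbtb7b is flanked by loxP sites is not given in the labels, so reads per gene do not show how much of either deleted allele was transcribed. Runx1, the related Runt-domain factor, was not called (57.9, 64.0 and 40.7 CPM against 60.1, 62.5 and 55.4 CPM, 0.13, adjusted p = 0.668). Cd4, Cd8a and Cd8b1 followed the gates that sorted the cells, which is no finding. Cd4 was at 874, 969.6 and 822 CPM in WT CD4 SP against 41.5, 19.9 and 17.4 CPM in mutant cells. Cd8a was at 7.68, 3.19 and 2.13 CPM against 1171, 1657 and 1654 CPM. Cd8b1 was at 33.0, 30.7 and 26.2 CPM against 1414, 2132 and 2213 CPM. Their log2 fold changes were -5.08, 8.43 and 6.00, and that of Cd8a was 9.11 without WT CD4 SP replicate 1.

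Runt-domain factors bind a core written TGTGGT on one strand and ACCACA on the other. Promoter windows of the Thpok and Runx3 genes and of 2 cytotoxic genes that rose are shown because they hold this core. They are from RefSeq, build GRCm38.p6, and run from 250 bases before to 50 bases after an annotated transcription start, 5′ to 3′ on the gene's strand, with the core in capitals. The windows were picked after the expression values were seen. They lie at chr3:89387622-89387921 (minus strand, Zbtb7b), chr4:135120395-135120694 (plus strand, Runx3), chr7:43436888-43437187 (plus strand, Nkg7) and chr10:61297586-61297885 (plus strand, Prf1).
Zbtb7b: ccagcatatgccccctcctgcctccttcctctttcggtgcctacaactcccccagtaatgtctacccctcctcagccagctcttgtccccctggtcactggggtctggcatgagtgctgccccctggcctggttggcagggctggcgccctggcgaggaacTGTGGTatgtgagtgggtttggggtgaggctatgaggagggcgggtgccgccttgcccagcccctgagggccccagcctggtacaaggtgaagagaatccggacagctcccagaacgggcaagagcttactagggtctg
Runx3: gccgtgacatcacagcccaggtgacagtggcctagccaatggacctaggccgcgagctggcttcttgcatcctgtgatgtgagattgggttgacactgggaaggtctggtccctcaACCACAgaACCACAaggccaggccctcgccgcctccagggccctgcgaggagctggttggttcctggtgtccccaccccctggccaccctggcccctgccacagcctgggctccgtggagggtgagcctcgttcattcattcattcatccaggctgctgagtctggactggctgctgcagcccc
Nkg7: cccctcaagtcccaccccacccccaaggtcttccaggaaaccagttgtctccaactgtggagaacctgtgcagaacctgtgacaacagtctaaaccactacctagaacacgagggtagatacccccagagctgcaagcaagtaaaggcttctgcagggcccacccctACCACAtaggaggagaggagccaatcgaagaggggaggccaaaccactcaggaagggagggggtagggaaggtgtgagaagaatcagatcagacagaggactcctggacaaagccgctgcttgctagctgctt
Prf1: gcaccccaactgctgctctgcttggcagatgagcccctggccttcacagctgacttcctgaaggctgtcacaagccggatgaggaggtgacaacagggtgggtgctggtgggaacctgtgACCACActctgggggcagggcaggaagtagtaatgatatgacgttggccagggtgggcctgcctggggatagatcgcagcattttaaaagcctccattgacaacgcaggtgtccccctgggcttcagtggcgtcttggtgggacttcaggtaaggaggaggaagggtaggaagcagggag
The Runx3 window holds 2 copies of ACCACA, those of Nkg7 and Prf1 hold 1 copy each, and the Zbtb7b window holds 1 copy of TGTGGT. Each of the Zbtb7b and Runx3 genes has another window without a copy. Over all genes with a window, 18.9% of 27025 hold a copy in some window. Of the 12 largest rises and 12 largest falls described next, 8 rises and 10 falls had a window, and 12.5% of the former and 30.0% of the latter held a copy. A match describes letters and is no measurement of binding.

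Mutant CD8 SP cells differed from WT CD4 SP cells in 2922 of 16550 genes tested (17.7%). Of these, 1474 (8.91% of genes tested) were higher and 1448 (8.75%) lower in the mutant cells. Counts of called list members given below are to be read against these shares. These shares take in genes of every level that passed the filter, and the lists were not matched to them for level. Lists with a median near 0 also exceeded 17.7%, such as integrins and adhesion (30.0% called, median -0.04). A change of at least 2-fold was fitted for 758 of the higher and 616 of the lower genes. The median log2 fold change of all genes tested was -0.0041, a value that the scaling for library composition itself sets near 0. The number of called genes fell to 1779 without WT CD4 SP replicate 3, to 1613 without mutant replicate 2 and to 1830 without mutant replicate 3. Against WT CD8 SP cells, which share the mutant libraries with the main comparison, 3045 genes (18.4%) were called, 7.78% of genes tested higher and 10.6% lower in the mutant cells. By ranges alone, the 3 mutant and 3 WT CD4 SP libraries did not overlap in 37.0% of genes tested, 18.2% with the mutant libraries above and 18.8% with them below.

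**Figure D1:**
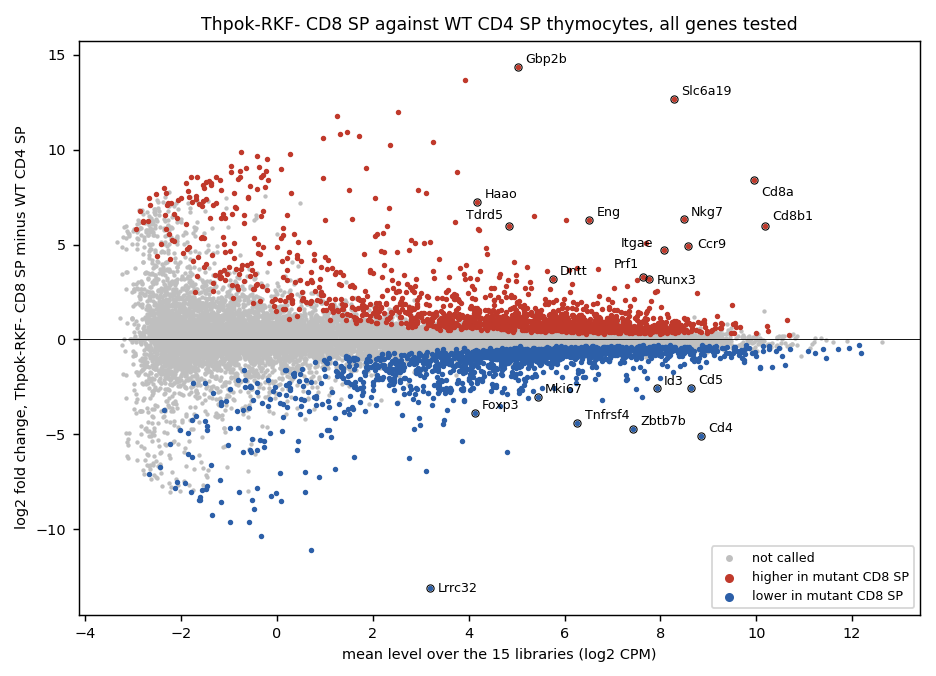
Each point is 1 of 16550 genes: the x axis is the mean level over the 15 libraries (log2 CPM) and the y axis the log2 fold change of mutant CD8 SP minus WT CD4 SP, with called genes in red (higher) and blue (lower). The red and blue clouds are of like size (1474 and 1448 genes) around 0; fitted values of genes with no counts in a group, such as Gbp2b and Lrrc32, depend on the prior count and are not sizes.

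The 12 largest rises in genes of sufficient level (mean log2 CPM over the 15 libraries of at least 3) included Cd8a and Cd8b1, the gate genes. This mean takes in groups outside the comparison. For some ranked rises and falls, such as Haao, Coro2a and Kif2c, the compared libraries alone average under this level. Slc6a19, a neutral amino acid transporter best known from gut and kidney, was at 0, 0.414 and 0.0229 CPM in WT CD4 SP and at 981, 1094 and 984 CPM in mutant cells (12.67 ± 0.51, adjusted p = 1.04e-09). The value was 16.11 without WT CD4 SP replicate 2, which held most of the WT CD4 SP reads. WT CD8 SP cells had 78.5, 69.0 and 68.8 CPM, so the mutant cells were far above both normal groups (3.82 ± 0.32, adjusted p = 1.39e-06 against WT CD8 SP). Cacng4, a calcium channel auxiliary subunit, went from 0.0228, 0.0414 and 0.0915 CPM to 19.5, 26.0 and 28.6 CPM (8.83 ± 0.51, adjusted p = 3.55e-08; 9.42 without WT CD4 SP replicate 3). Haao, an enzyme of tryptophan breakdown, went from 0, 0.0621 and 0.0686 CPM to 10.04, 7.22 and 4.08 CPM (7.24 ± 0.47, adjusted p = 1.01e-07). Its mutant levels stayed below the 66.2, 60.2 and 70.4 CPM of WT CD8 SP cells (-3.20 ± 0.30, adjusted p = 3.45e-06). The adhesion G protein-coupled receptor gene Adgrb2 rose (6.505, adjusted p = 6.31e-06; 5.92 without WT CD4 SP replicate 1 and 8.58 without WT CD4 SP replicate 3). Baiap3, a gene of vesicle release, rose as well (6.29, adjusted p = 2.89e-05; 7.06 without WT CD4 SP replicate 3). So did Ppp1r1b, a phosphatase inhibitor known from neurons (6.18, adjusted p = 1.39e-04; 5.57 without WT CD4 SP replicate 2). Without WT CD4 SP replicate 3, the library that held all its WT CD4 SP reads, the fitted value was 12.77. With no WT CD4 SP counts left, that value depends on the prior count and is not a size. The other rises of this group, Gbp2b, Tdg-ps2, Nkg7 and Eng, are described below with the genes they resemble.

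The 12 largest falls included Cd4, the gate gene, and Zbtb7b, floxed in the genotype. Tnfrsf4, which encodes the costimulatory receptor OX40, fell from 247, 188 and 269 CPM to 16.9, 9.03 and 7.27 CPM (-4.41 ± 0.37, adjusted p = 1.47e-06). Itih5, an extracellular matrix protein, fell from 41.9, 39.3 and 47.3 CPM to 1.82, 1.28 and 0 CPM (-5.37 ± 0.74, adjusted p = 1.71e-04; -6.07 without mutant replicate 1). This was below the 10.4, 11.6 and 7.27 CPM of WT CD8 SP cells. Arhgap20, a GTPase-activating protein, fell from 27.5, 31.3 and 23.3 CPM to 0.719, 0.800 and 2.21 CPM (-4.46, adjusted p = 0.00135; -5.17 without mutant replicate 3), to levels near those of WT CD8 SP cells (0.346, 2.66 and 4.45 CPM). Coro2a, an actin-binding coronin, fell from 4.04, 3.37 and 7.50 CPM to 0.0674, 0.562 and 0.713 CPM (-3.46, adjusted p = 5.53e-04), whereas WT CD8 SP cells had 33.8, 25.2 and 28.6 CPM. Syt10, a synaptotagmin, had 45 counts in WT CD4 SP and 0 in mutant cells, at least 14.98-fold lower against 3 counts over the mutant libraries taken as the floor. In mutant CD4+CD8+ libraries with Thpok-RKF, which are outside the comparison, it ran over 33.4 to 48.0 CPM, and only through these did its mean level pass. Its call was lost (adjusted p = 0.0534 to 0.0911 without WT CD4 SP replicates 1 or 3 or any mutant replicate).

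Genes of the cytotoxic lineage rose as a group. Of 26 tested members of the list, 14 were higher, 2 lower and 10 not called, with a median log2 fold change of 1.85, against 8.91% higher, 8.75% lower and a median of -0.0041 over all genes. The higher count was 14 or 15 with any of the 6 libraries left out, and it includes Cd8a and Cd8b1, the gate genes, and Runx3 of the genotype. It also includes Slc6a19 and Haao, which encode a transporter and a metabolic enzyme. The list was drawn up with earlier results of these data known, so its count is not independent evidence of its direction. Prf1, which encodes perforin, was at 36.3, 31.7 and 30.2 CPM in WT CD4 SP and at 297, 327 and 344 CPM in mutant cells (3.30 ± 0.16, adjusted p = 8.33e-09). WT CD8 SP cells had 113, 134 and 140.5 CPM, so the mutant cells exceeded them (1.32 ± 0.15, adjusted p = 2.26e-05). Nkg7, a cytotoxic granule membrane protein, went from 1.26, 2.09 and 5.47 CPM to 236, 226 and 245 CPM (6.33 ± 0.41, adjusted p = 1.16e-07; 7.09 without WT CD4 SP replicate 3). Here WT CD8 SP cells were higher still at 1065, 1327 and 1295 CPM (-2.38 ± 0.34, adjusted p = 1.53e-04). Cst7, which encodes the protease inhibitor cystatin F, rose from 4.18, 5.61 and 6.27 CPM to 16.8, 18.0 and 16.1 CPM (1.66, adjusted p = 4.29e-06). It was below WT CD8 SP cells (112, 101 and 102 CPM, -2.63 ± 0.15, adjusted p = 4.92e-08). Crtam, a receptor of the nectin family, rose from 4.34, 7.62 and 11.7 CPM to 50.5, 52.8 and 53.0 CPM (2.72, adjusted p = 4.65e-05). Its difference from WT CD8 SP was not called (0.48 ± 0.30, adjusted p = 0.318).

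Other members did not follow this direction. Dapl1 fell from 15.5, 23.2 and 32.3 CPM to 4.87, 2.46 and 3.95 CPM (-2.66 ± 0.29, adjusted p = 2.11e-05). Fasl, the ligand of the death receptor Fas, fell from 7.63, 7.37 and 12.6 CPM to 0.988, 0.389 and 0.401 CPM (-3.95 ± 0.91, adjusted p = 0.00845; -4.54 without mutant replicate 1). Both are listed with the cytotoxic genes, though Fasl in WT CD8 SP thymocytes was only at 0.0798, 0.0502 and 0 CPM. Eomes, the T-box factor of memory and innate-like CD8 cells, was at 2.70, 0.724 and 0.252 CPM in WT CD4 SP, 0.831, 0.303 and 0.803 CPM in mutant and 11.1, 15.6 and 17.4 CPM in WT CD8 SP cells. It was not called against WT CD4 SP (-0.92, adjusted p = 0.327) and was lower than in WT CD8 SP (-4.51 ± 0.66, adjusted p = 2.04e-04). Among 9 tested natural killer receptors and adaptors, 3 were higher and 1 lower (median 1.13, also with Klrk1 at its bound). Cd160, an immunoglobulin-like receptor, rose from 1.21, 2.61 and 2.47 CPM to 8.02, 14.3 and 19.7 CPM (2.74, adjusted p = 7.48e-05). Klrd1, which encodes CD94, rose from 0.0457, 0.476 and 1.74 CPM to 4.85, 5.97 and 3.52 CPM (2.67, adjusted p = 0.00626; 4.11 without WT CD4 SP replicate 3). In WT CD8 SP cells they were at 70.5, 95.7 and 99.6 CPM and 56.7, 70.3 and 68.0 CPM, above the mutant cells (adjusted p = 3.83e-05 and 2.49e-04). Klrk1, which encodes NKG2D, had 0 counts in WT CD4 SP and 16 in mutant cells, at least 5.34-fold higher, and lost its call (adjusted p = 0.0592 to 0.0953 without any WT CD4 SP replicate or any mutant replicate). Hcst, the adaptor DAP10, fell (-0.58, adjusted p = 0.00248).

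Eng and Itgae, genes of the TGF-beta pathway, rose strongly in the mutant cells. Eng encodes endoglin, a co-receptor for TGF-beta family ligands best known from endothelium. It was at 1.17, 1.74 and 1.92 CPM in WT CD4 SP and at 118, 133 and 132 CPM in mutant cells (6.30 ± 0.22, adjusted p = 7.16e-10). All 3 mutant libraries were also above WT CD8 SP cells at 54.2, 51.9 and 54.1 CPM (1.26 ± 0.17, adjusted p = 1.13e-04). Itgae encodes CD103, the integrin alpha chain that binds E-cadherin on epithelium and is induced by TGF-beta in T cells. It was at 6.24, 10.3 and 8.76 CPM in WT CD4 SP and at 209.7, 225 and 221 CPM in mutant cells (4.70 ± 0.18, adjusted p = 9.44e-10). Its level in WT CD8 SP cells was 888, 867 and 850.0 CPM (-1.99 ± 0.16, adjusted p = 1.05e-06). Relative to normal CD8 SP cells, then, Eng was higher and Itgae lower in the mutant cells, and relative to normal CD4 SP cells both were higher.

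Other genes of the pathway went both ways. Of 25 tested members of the whole list, 4 were higher, Eng and Itgae among them, and 3 lower (median 0.15, also with genes at 0 in a group at their bounds). Smad3, a signal transducer of TGF-beta, rose from 25.6, 40.9 and 18.7 CPM to 64.1, 80.6 and 69.9 CPM (1.33, adjusted p = 0.00882). Pmepa1, a target gene that restrains the pathway, rose from 32.1, 36.6 and 36.9 CPM to 63.2, 53.8 and 56.4 CPM (0.72, adjusted p = 2.93e-04). The receptor genes Tgfbr1 (0.22, adjusted p = 0.517) and Tgfbr2 (0.24, adjusted p = 0.384) were not called. Lrrc32, which encodes GARP, a docking protein for latent TGF-beta on regulatory T cells, was at 14.4, 33.8 and 27.2 CPM in WT CD4 SP cells and had 0 counts in all 3 mutant libraries, at least 1149.9-fold lower. Skil, an inhibitor of Smads, fell (-0.71, adjusted p = 0.00451), and so did Acvrl1, a type I receptor that pairs with endoglin (-0.63, adjusted p = 0.0176). The call of Acvrl1 was lost (adjusted p = 0.0579 to 0.0630 without WT CD4 SP replicate 1 or mutant replicate 2).

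**Figure D2:**
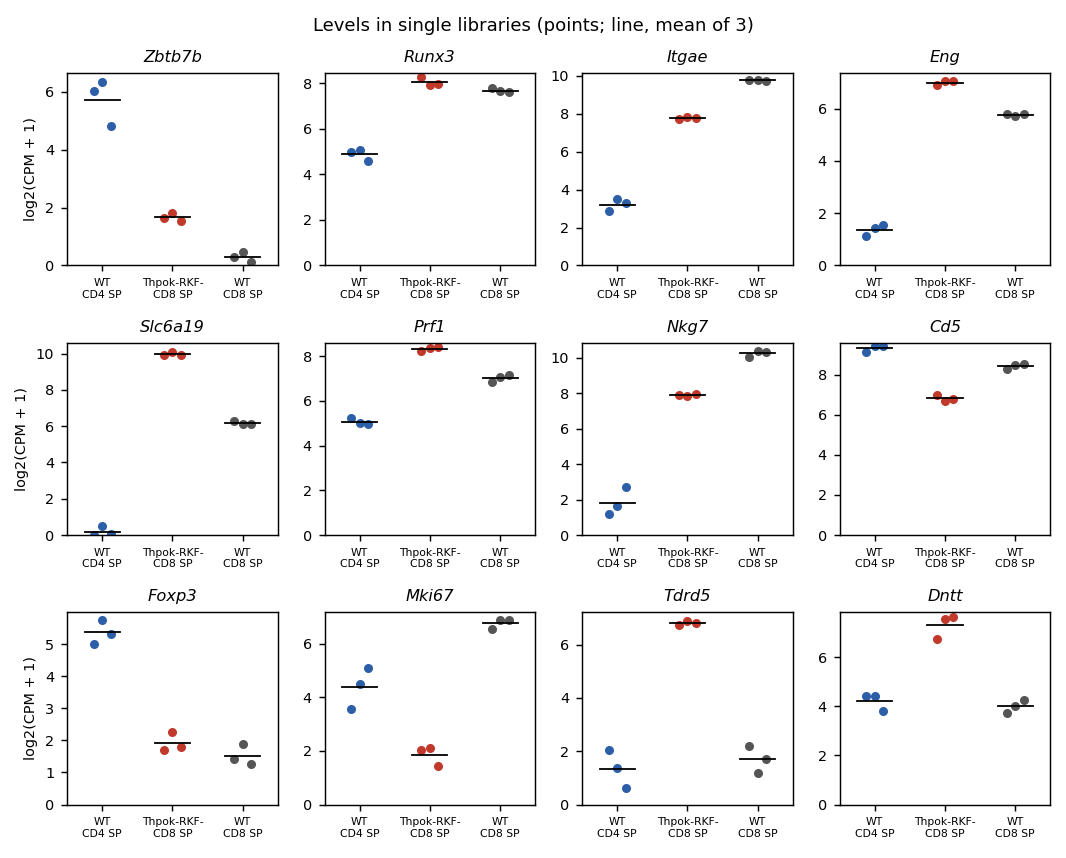
Levels of 12 genes on a log2(CPM + 1) scale in WT CD4 SP (blue), mutant Thpok-RKF- CD8 SP (red) and WT CD8 SP cells (grey); each point is a library and each line the mean of 3. Runx3, Eng, Slc6a19 and Prf1 in the mutant cells lie at or above the WT CD8 SP points, Itgae and Nkg7 lie between the WT groups, Cd5 and Mki67 lie below both, and Tdrd5 and Dntt lie above both.

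Helper genes fell. Of 14 tested members of the helper list, 10 were lower and 0 higher by edgeR (median -1.09), with 1 higher at an unadjusted p under 0.05 and 1 by DESeq2. The lower count ran from 8 to 11 with each library left out. It includes Cd4, the gate gene, and Zbtb7b of the genotype. Besides Zbtb7b, Cd4 and Tnfrsf4, the list's falls included Icos, a costimulatory receptor (138, 191 and 188 CPM against 84.5, 84.4 and 83.0 CPM, -1.04 ± 0.13, adjusted p = 8.07e-05). Cd40lg, the ligand through which helper cells act on B cells, fell as well (106, 125 and 125 CPM against 43.9, 57.4 and 60.3 CPM, -1.14 ± 0.26, adjusted p = 0.00836). The fall of Cd40lg stopped well above normal CD8 SP cells, which had 2.10, 3.24 and 4.69 CPM (4.004 ± 0.30, adjusted p = 5.56e-07). The same order held for Ptgir, the prostacyclin receptor (64.3, 72.4 and 65.5 CPM in WT CD4 SP, 20.4, 18.1 and 13.3 CPM in mutant and 0.745, 1.71 and 0.863 CPM in WT CD8 SP cells, -1.96, adjusted p = 1.79e-04). St8sia6, a sialyltransferase, was at 177, 199 and 177 CPM in WT CD4 SP, 98.2, 49.8 and 54.1 CPM in mutant and 0.718, 0.853 and 0.0233 CPM in WT CD8 SP cells. Its fall from WT CD4 SP (-1.45, adjusted p = 0.0139) lost its call (adjusted p = 0.0651 to 0.0693 without mutant replicates 2 or 3), while its excess over WT CD8 SP was 7.01 ± 0.51, adjusted p = 4.38e-07. For each of these 3 genes every mutant library lay between the ranges of the WT groups.

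Gata3, the factor upstream of Thpok in the helper choice, was at 69.4, 100.4 and 111 CPM in WT CD4 SP and 72.9, 74.4 and 69.5 CPM in mutant cells, and the groups overlapped (-0.37 ± 0.16, adjusted p = 0.123). Without WT CD4 SP replicate 1 it was called lower (-0.57). In WT CD8 SP cells it was at 38.3, 41.5 and 39.2 CPM, lower than in the mutant cells (0.86 ± 0.16, adjusted p = 0.00143). Il6ra, a chain of the interleukin 6 receptor, was not called either (120.1, 157 and 60.05 CPM against 139, 108 and 133 CPM, 0.17, adjusted p = 0.719). Nor was Khdrbs3, an RNA-binding protein (7.17, 5.32 and 6.75 CPM against 20.9, 10.7 and 11.3 CPM, 1.16, adjusted p = 0.0595). It was called higher without the low-count filter, by DESeq2, with only the 2 groups and by limma-trend (adjusted p = 0.0109 to 0.0298). Khdrbs3 was near 0 in WT CD8 SP cells (0.0266, 0.376 and 0.117 CPM).

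Genes of regulatory T cells, a CD4 lineage that the WT CD4 SP gate can hold, fell together. Of these genes, 12 of 15 tested members were lower and 0 higher by edgeR (median -2.38, also with genes at 0 at their bounds), with 0 higher at an unadjusted p under 0.05 and 0 by DESeq2. The lower count was 12 with any library left out. Tnfrsf4 and Izumo1r count among the helper falls as well, so the falls of the lists are not separate results. Foxp3, the defining factor of the lineage, was at 31.5, 53.7 and 39.3 CPM in WT CD4 SP and 2.27, 3.85 and 2.45 CPM in mutant cells (-3.86 ± 0.36, adjusted p = 5.56e-06). In WT CD8 SP cells Foxp3 was at 1.68, 2.68 and 1.42 CPM (0.57 ± 0.35, adjusted p = 0.305 against the mutant). Il2ra, the interleukin 2 receptor alpha chain, went from 19.7, 45.4 and 33.4 CPM to 4.15, 6.01 and 5.596 CPM (-2.64 ± 0.42, adjusted p = 5.55e-04). Tnfrsf18, which encodes GITR, went from 141, 137 and 185 CPM to 71.4, 49.0 and 52.2 CPM (-1.43, adjusted p = 2.41e-04). Izumo1r, the folate receptor 4 gene, went from 225, 237 and 302 CPM to 90.0, 91.4 and 99.8 CPM (-1.44, adjusted p = 2.38e-04). The summed level of the list was 985 to 1248 CPM in WT CD4 SP, 326 to 421 CPM in mutant and 326 to 438 CPM in WT CD8 SP libraries. In these bulk libraries fewer cells of a type and less RNA per cell cannot be told apart. Ctla4, an inhibitory receptor of regulatory and activated T cells, was not called (34.2, 40.0 and 33.8 CPM against 51.0, 17.3 and 17.3 CPM, -0.33, adjusted p = 0.626), with mutant replicate 1 above all others. Without the libraries numbered 1 it was called lower (-1.10, adjusted p = 0.00158).

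Genes that respond to signals of the T cell receptor (TCR) were lower in the mutant cells. Of 19 tested members, 12 were lower and 1 higher (median -1.50), and 11 to 13 were lower with each library left out. The lower count includes Cd69, whose product every gate held low. It also includes Tnfrsf9 and Ikzf2, which count among the regulatory T cell falls as well. Cd5 encodes an inhibitory surface protein whose level tracks the strength of TCR signalling in thymocytes. It was at 562, 701 and 706 CPM in WT CD4 SP and at 124, 103 and 111 CPM in mutant cells (-2.54 ± 0.13, adjusted p = 1.57e-08). WT CD8 SP cells had 312, 359 and 366 CPM, so all 3 mutant libraries were below all 6 WT libraries (-1.61 ± 0.13, adjusted p = 8.94e-07 against WT CD8 SP). Its relative Cd6 was at 1662, 1758 and 2069 CPM in WT CD4 SP, 711, 623 and 669 CPM in mutant and 1084, 1199.8 and 1274 CPM in WT CD8 SP cells. It was again lowest in the mutant cells (-1.45, adjusted p = 9.04e-06; -0.83 ± 0.14, adjusted p = 7.24e-04 against WT CD8 SP).

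Some early response factors fell as well, while the early genes Nr4a2, Nr4a3, Nfkbid and Dusp2 were not called (adjusted p = 0.338, 0.124, 0.0504 and 0.972). Nr4a1, an orphan nuclear receptor induced early after TCR engagement, went from 275, 326 and 325 CPM to 71.5, 44.5 and 36.9 CPM (-2.60 ± 0.31, adjusted p = 4.65e-05). Its difference from WT CD8 SP (63.9, 73.0 and 81.2 CPM) was not called (adjusted p = 0.266). Egr2, a zinc finger factor of the same response, went from 104, 105 and 109.9 CPM to 25.2, 29.2 and 26.9 CPM (-1.97 ± 0.22, adjusted p = 3.06e-05). This was below WT CD8 SP at 58.7, 107 and 116 CPM (adjusted p = 4.41e-05). Irf4, whose level scales with TCR signal strength, went from 22.2, 7.55 and 11.8 CPM to 0.943, 2.23 and 1.09 CPM (-3.28, adjusted p = 0.00191). Tnfrsf9, the costimulatory receptor 4-1BB, went from 26.3, 35.5 and 34.5 CPM to 4.74, 5.79 and 7.94 CPM (-2.38, adjusted p = 2.14e-05). Pdcd1, which encodes PD-1, went from 20.3, 39.7 and 34.1 CPM to 5.48, 6.66 and 9.88 CPM (-2.10, adjusted p = 5.80e-04). Both were also below WT CD8 SP cells (adjusted p = 1.77e-05 and 7.73e-04). The single higher member was Bcl2l11, which encodes the pro-apoptotic protein BIM (28.2, 26.5 and 17.5 CPM against 62.8, 60.7 and 52.3 CPM, 1.28, adjusted p = 0.0254). Its call was lost (adjusted p = 0.0658 to 0.119 without WT CD4 SP replicate 3 or mutant replicates 1 or 2).

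The receptor complex and its proximal signalling proteins went both ways, with 5 of 28 tested members higher and 9 lower (median -0.09). The higher count was 3 without WT CD4 SP replicate 3 or mutant replicates 2 or 3. The adaptor Grap2 (0.97, adjusted p = 2.10e-04) and Themis, a thymocyte signalling protein (0.56, adjusted p = 0.00137), rose. Further rises were the CD3 chain Cd3e (0.36, adjusted p = 0.0126) and the ubiquitin ligase Cbl (0.78, adjusted p = 0.0388). Calls were lost for Cd3e (adjusted p = 0.0557 to 0.101 without WT CD4 SP replicates 1 or 3 or mutant replicates 2 or 3). They were also lost for Cbl (adjusted p = 0.0678 to 0.161 without WT CD4 SP replicates 2 or 3 or any mutant replicate). Besides Cd5 and Cd6, falls included the adhesion molecule Cd2 (1397, 1471 and 2143 CPM against 553, 572 and 648 CPM, -1.50, adjusted p = 6.57e-04) and the phosphatase Ptpn6 (-0.69, adjusted p = 0.00121). The costimulatory receptor Cd28 fell too (436, 412 and 372 CPM against 273, 229 and 219.9 CPM, -0.76, adjusted p = 0.0115). The kinase Lck was not called (-0.12, adjusted p = 0.697).

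**Figure D3:**
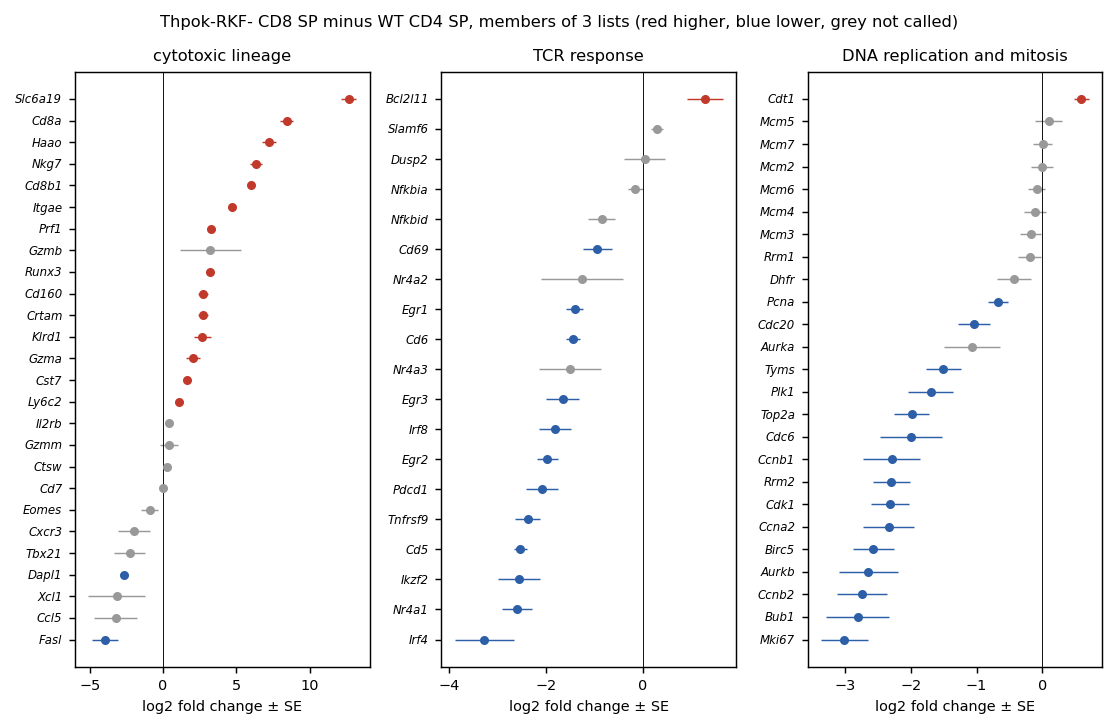
Log2 fold change of mutant CD8 SP minus WT CD4 SP with its standard error for the tested members of 3 lists, in order of size; red and blue points are called higher and lower and grey points are not called. The cytotoxic list has 14 red and 2 blue points, the TCR response list 1 red and 12 blue, and the DNA replication and mitosis list 1 red and 15 blue.

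Mitotic genes were lower in the mutant cells. Of 25 tested genes of DNA replication and mitosis, 15 were lower and 1 higher (median -1.51), and 15 or 16 were lower with each library left out. Mki67, which encodes the proliferation marker Ki-67, was at 10.99, 21.6 and 33.5 CPM in WT CD4 SP, 3.12, 3.33 and 1.72 CPM in mutant and 92.6, 119 and 118 CPM in WT CD8 SP cells. It fell against both (-3.01 ± 0.35, adjusted p = 4.47e-05; -5.33 ± 0.39, adjusted p = 4.26e-07 against WT CD8 SP). The mutant libraries were thus below all 6 WT libraries. The mitotic kinase Cdk1 (6.47, 10.02 and 9.44 CPM against 1.46, 2.20 and 1.52 CPM, -2.32, adjusted p = 6.63e-05) and the survivin gene Birc5 (-2.57, adjusted p = 6.22e-05) fell in the same way. So did the topoisomerase Top2a (25.9, 53.2 and 54.2 CPM against 11.5, 12.02 and 10.2 CPM, -1.99, adjusted p = 1.35e-04) and Rrm2, a subunit of ribonucleotide reductase (-2.30, adjusted p = 6.22e-05). Outside the list, 3 spindle genes were among the 12 largest falls. Kif2c went from 5.89, 8.38 and 12.7 CPM to 0.606, 0.908 and 0.535 CPM (-3.71, adjusted p = 8.70e-06). The others were Nusap1 (-3.50, adjusted p = 3.76e-04; -4.59 without mutant replicate 1) and Cenpf (-3.26, adjusted p = 0.00107; -4.29 without mutant replicate 1). Helicase genes of replication licensing were not called. Mcm2 was at 135, 163 and 152 CPM in WT CD4 SP and 117, 162 and 169 CPM in mutant cells (-0.01, adjusted p = 0.986), and Mcm6 had a log2 fold change of -0.09, adjusted p = 0.715. Both were lower than in WT CD8 SP cells (adjusted p = 2.86e-05 and 8.15e-07). Cdt1, a licensing factor, was the member that rose (43.1, 46.3 and 54.2 CPM against 69.6, 73.4 and 74.3 CPM, 0.60 ± 0.11, adjusted p = 0.00260).

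Several genes of the mutant CD8 SP cells lay outside both normal groups. Tdrd5, a tudor-domain protein known from the germ line and listed here with immature thymocyte genes, was at 106, 119 and 112 CPM in the mutant cells against 0.549 to 3.56 CPM over the 6 WT libraries. Against WT CD4 SP the value was 5.99 ± 0.53, adjusted p = 3.17e-06 (6.69 without WT CD4 SP replicate 1). The mutant CD4+CD8+ libraries, with or without Thpok-RKF, ran over 8.25 to 23.4 CPM, below all 3 mutant CD8 SP libraries. Dntt, the terminal transferase that adds bases at receptor gene joints in immature thymocytes, was at 107, 187 and 197 CPM against 12.2 to 20.3 CPM in WT libraries. It was higher than in WT CD4 SP (3.20 ± 0.30, adjusted p = 5.60e-06) and in WT CD8 SP cells (3.43 ± 0.30, adjusted p = 1.95e-06). Slc16a5, a monocarboxylate transporter, was at 272, 492 and 510.0 CPM against 46.7 to 75.4 CPM (2.80 ± 0.28, adjusted p = 9.64e-06). Pcsk1, a prohormone convertase, was at 84.5, 122 and 119 CPM against 1.33 to 10.5 CPM (3.84 ± 0.42, adjusted p = 2.68e-05). In the other mutant libraries Pcsk1 ran over 48.6 to 62.7 CPM without and over 8.59 to 17.7 CPM with Thpok-RKF.

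Of 15 tested genes of immature double-positive thymocytes, 5 were higher and 0 lower by edgeR (median 0.59), with 1 lower at an unadjusted p under 0.05 and 0 by DESeq2. Besides Tdrd5, Dntt and Slc16a5 these were Themis and Ccr4, a chemokine receptor gene (1.17, adjusted p = 0.0399). The call was lost for Ccr4 (adjusted p = 0.102 to 0.193 without WT CD4 SP replicates 1 or 3 or mutant replicates 2 or 3). Genes that define this stage were not called. The recombinase gene Rag1 was at 3.06, 0.393 and 0.320 CPM against 1.80, 2.20 and 0.713 CPM (0.32, adjusted p = 0.885). The pre-TCR chain Ptcra was at 0.754, 0 and 0.755 CPM against 0.0674, 0 and 0 CPM (adjusted p = 0.232). The summed level of the list was 429 to 476 CPM in WT CD4 SP and 921 to 1206 CPM in mutant libraries, or 371 to 420.0 against 649 to 696 CPM without Slc16a5. The latter sums still hold Tdrd5 and Dntt, whose rises are described above, and 10 of the 15 tested members were not called. The list was drawn up with earlier results of these data known, so its sums and counts are not independent evidence of a direction.

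Gbp2b, Tdg-ps2 and Hmga1b also separated mutant from WT cells, and did so in every mutant group. Gbp2b, an interferon-induced guanylate-binding protein, had 0 counts in the 3 WT CD4 SP libraries and 52.6, 58.2 and 68.2 CPM in mutant CD8 SP cells, at least 2701-fold higher. It ran over 32.9 to 66.8 CPM in the 6 mutant CD4+CD8+ libraries and over 0 to 0.0266 CPM in WT CD8 SP cells. Tdg-ps2, a transcribed pseudogene, ran over 8.59 to 18.8 CPM in all 9 mutant and 0.0414 to 0.151 CPM in all 6 WT libraries (7.73, adjusted p = 8.35e-10). Hmga1b, a copy of the chromatin protein gene Hmga1, ran over 9.27 to 21.0 CPM in mutant and 0.133 to 0.960 CPM in WT libraries (5.13, adjusted p = 6.07e-06; 6.19 without WT CD4 SP replicate 1). All 3 have close relatives in the genome whose reads may be shared with them, so these levels are uncertain. WT and mutant cells came from different donors in every group, so a donor difference at these genes and an effect of the genotype cannot be told apart. Lrrc32, by contrast, had 0 counts in the mutant CD8 SP libraries and 4.26 to 19.7 CPM in the mutant CD4+CD8+ libraries.

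Among 28 tested thymocyte transcription factors, 5 were higher and 4 lower (median 0.10). The higher count was 2 without WT CD4 SP replicates 1 or 3 or mutant replicate 2, and the lower count was 2 without WT CD4 SP replicate 3 or mutant replicate 1. Id3, an inhibitor of E proteins, went from 279.7, 426 and 430.2 CPM to 33.1, 78.9 and 79.7 CPM (-2.57 ± 0.43, adjusted p = 8.69e-04). Klf2, a factor of egress genes, went from 459, 506 and 395 CPM to 227, 242 and 228 CPM (-0.96 ± 0.12, adjusted p = 5.93e-05). Both were also below WT CD8 SP cells (adjusted p = 1.47e-04 and 1.82e-06). Patz1, a BTB zinc finger factor, rose from 100, 73.5 and 58.7 CPM to 173, 169 and 176 CPM (1.16, adjusted p = 0.00166). So did Zbtb7a, the closest relative of Thpok (68.6, 62.4 and 56.8 CPM against 104, 90.7 and 102 CPM, 0.66, adjusted p = 5.98e-04). The remaining calls were rises of Runx2 (3.27; 5.25 without WT CD4 SP replicate 2), Tcf3 (0.47) and Satb1 (0.26) and falls of Cbfb, the shared partner of Runt-domain factors (-0.55), and Tox (-0.42). Each of these 5 lost its call with some library left out, namely Runx2 (adjusted p = 0.0578 to 0.0603 without WT CD4 SP replicates 1 or 3 or mutant replicate 2) and Tcf3 (adjusted p = 0.0571 to 0.136 without WT CD4 SP replicates 1 or 3 or mutant replicates 2 or 3) among others. The same held for Satb1 (adjusted p = 0.0667 to 0.151 without any WT CD4 SP replicate or any mutant replicate). It held for Cbfb (adjusted p = 0.0609 to 0.0648 without WT CD4 SP replicate 3 or mutant replicate 1) and for Tox (adjusted p = 0.0646 to 0.143 without WT CD4 SP replicates 2 or 3 or any mutant replicate). Tcf7, which encodes TCF1, was not called (-0.24, adjusted p = 0.107). It was called lower with a term for the libraries numbered 1 (adjusted p = 0.0235) and with the replicate block (adjusted p = 0.0330).

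Of 18 tested factors of effector and innate-like T cells, 2 were higher, a share near the 8.91% of all genes tested, and 5 lower (median -0.75). Rora, an orphan receptor of innate-like lymphocytes, was at 11.03, 7.62 and 7.45 CPM in WT CD4 SP and 65.1, 61.9 and 57.6 CPM in mutant cells (2.82 ± 0.25, adjusted p = 2.98e-06). This was above WT CD8 SP at 5.88, 10.7 and 13.7 CPM (adjusted p = 3.87e-06). The other rise was Stat4 (0.41, adjusted p = 0.0397), and its call was lost (adjusted p = 0.0561 to 0.160 without any WT CD4 SP replicate or any mutant replicate). Falls besides Irf4 included Batf (-1.20, adjusted p = 5.36e-04), Ikzf4, which encodes Eos (-1.25, adjusted p = 0.00112), and Ikzf2, which encodes Helios (-2.56, adjusted p = 8.76e-04). Ikzf2 is also on the regulatory T cell and TCR response lists, and its level in WT CD8 SP cells (23.6, 35.5 and 30.4 CPM) was above both WT CD4 SP (5.35, 8.90 and 12.1 CPM) and mutant cells (2.40, 0.994 and 1.07 CPM).

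Receptors for position and cytokines differed in a few strong cases. Ccr9, the receptor for the thymic and gut chemokine CCL25, went from 24.1, 20.6 and 18.7 CPM to 545, 731 and 617 CPM (4.90 ± 0.22, adjusted p = 3.58e-09). It was above WT CD8 SP at 358, 326 and 312 CPM (0.93 ± 0.19, adjusted p = 0.00310). With Ccr4 it made up the 2 rises among 15 tested chemokine receptors, a share near the 8.91% of all genes tested, beside 3 falls (median -0.51). There were 5 falls without WT CD4 SP replicate 1. The falls were Ccr8, a receptor of regulatory and type 2 helper cells (68.8, 54.1 and 66.0 CPM against 13.6, 5.51 and 6.78 CPM, -2.87, adjusted p = 2.09e-04), Gpr183 and S1pr1. Gpr183, an oxysterol receptor, went from 193, 146 and 139 CPM to 33.9, 39.5 and 44.9 CPM (-2.02, adjusted p = 5.93e-07). S1pr1 is the egress receptor (1228, 1391 and 1383 CPM against 837, 669.7 and 661 CPM, -0.88, adjusted p = 2.56e-04). Of 18 tested genes of maturation and egress, 2 were higher, a share near the 8.91% of all genes tested, and 9 lower (median -0.28). The falls included the tetraspanning proteins Ms4a4b (1816, 1894 and 2488 CPM against 879, 770.1 and 833 CPM, -1.32, adjusted p = 3.42e-05) and Ms4a6b (-1.07, adjusted p = 1.39e-04). Another was the GTPase-activating protein Arhgap18 (-1.39, adjusted p = 7.08e-05). Ccr7, the chemokine receptor of mature thymocytes, was not called (-0.19, adjusted p = 0.283). The rises were Ly6c1 (23.8, 23.02 and 23.3 CPM against 58.7, 74.5 and 73.0 CPM, 1.56, adjusted p = 0.00335) and the class Ib gene H2-Q7 (0.68, adjusted p = 5.47e-04), and both have near-identical relatives that can share reads.

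Among 25 tested cytokine receptors and their inhibitors, 3 were higher, a share near the 8.91% of all genes tested, and 6 lower (median -0.17). Socs1, a suppressor of cytokine signalling, rose from 94.6, 77.3 and 86.1 CPM to 194, 219.6 and 220.4 CPM (1.30 ± 0.11, adjusted p = 1.38e-06). Its relative Socs3 rose from 57.7, 56.3 and 45.0 CPM to 182, 288 and 298 CPM (2.27 ± 0.22, adjusted p = 7.84e-06). Both were also above WT CD8 SP cells (adjusted p = 3.66e-07 and 3.84e-06). Il18r1, a chain of the interleukin 18 receptor, was the other rise (5.92, 9.77 and 11.2 CPM against 67.0, 43.2 and 44.9 CPM, 2.53, adjusted p = 8.47e-05). Il4ra fell from 559, 492 and 389.7 CPM to 212, 168 and 207 CPM (-1.30 ± 0.14, adjusted p = 2.09e-05). Il7r, the interleukin 7 receptor alpha chain, was not called (403, 276 and 266 CPM against 485, 426 and 451 CPM, 0.53, adjusted p = 0.104), but was called higher without WT CD4 SP replicate 1 (0.73). The same held without the libraries numbered 1, with a term for them, with the replicate block and without the low-count filter (adjusted p = 5.01e-04 to 0.0381). Pim1, a kinase induced by cytokines of the STAT5 pathway on none of the lists, went from 2.10, 3.81 and 5.33 CPM to 50.3, 38.6 and 49.4 CPM (3.62 ± 0.27, adjusted p = 5.18e-07). It was above WT CD8 SP at 3.35, 2.41 and 2.59 CPM (4.05 ± 0.28, adjusted p = 3.14e-07).

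Among costimulatory ligands and receptors, 7 of 20 tested TNF family genes were lower and 1 higher (median -0.20). The higher share was below the 8.91% of all genes tested. The higher count was 0 without WT CD4 SP replicate 1 and 2 without WT CD4 SP replicate 2 or 3. The falls not yet given included Tnfsf11, which encodes RANKL, a ligand through which thymocytes act on thymic epithelium (11.8, 13.2 and 13.1 CPM against 2.83, 3.18 and 3.66 CPM, -1.98 ± 0.21, adjusted p = 2.05e-05). The rise was Tnfrsf1a (0.90, adjusted p = 0.0146), with its call lost (adjusted p = 0.0678 to 0.0941 without WT CD4 SP replicate 1 or mutant replicate 2). Of 14 tested coinhibitory and CD28 family genes, 3 were higher and 5 lower (median -0.33). Cd226, the activating receptor DNAM-1, rose beside Crtam and Cd160 (42.9, 44.4 and 43.7 CPM against 138, 149.6 and 143 CPM, 1.72 ± 0.11, adjusted p = 1.08e-07). Falls besides Icos, Pdcd1 and Cd28 were Cd200 (71.4, 68.9 and 96.5 CPM against 8.62, 8.56 and 10.5 CPM, -3.10 ± 0.18, adjusted p = 3.69e-08) and Btla (102, 124 and 130.3 CPM against 49.7, 48.5 and 59.2 CPM, -1.18, adjusted p = 1.68e-04). Of 20 tested integrins and adhesion genes, 2 were higher, a share near the 8.91% of all genes tested, and 4 lower (median -0.04). Icam1, the ligand of the integrin LFA-1, rose beside Itgae (30.1, 44.7 and 42.0 CPM against 153, 150.0 and 159 CPM, 1.98 ± 0.15, adjusted p = 3.92e-07). Falls included Itga6 (-0.73, adjusted p = 0.00158), Amigo2 (-0.64, adjusted p = 0.00211) and Itgb2 (-0.36, adjusted p = 0.0400). The call was lost for Itgb2 (adjusted p = 0.0667 to 0.133 without WT CD4 SP replicates 2 or 3 or any mutant replicate).

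Of 19 tested nutrient transporters, 5 were higher and 5 lower (median -0.11), and 3 were lower without mutant replicate 3. Beside Slc6a19, rises were Slc12a7, a potassium-chloride cotransporter (369, 403 and 301 CPM against 1722, 1069.8 and 1042 CPM, 1.84, adjusted p = 4.96e-05), and the glucose transporter Slc2a3 (0.95, adjusted p = 4.89e-04). Further rises were the neutral amino acid transporter Slc38a2 (1.03, adjusted p = 0.00348) and the aromatic amino acid transporter Slc16a10 (1.07, adjusted p = 0.00382). Both chains of the large neutral amino acid transporter fell. Slc7a5 went from 71.7, 67.6 and 48.5 CPM to 41.0, 36.4 and 37.3 CPM (-0.71, adjusted p = 0.00790). Slc3a2 went from 169, 172 and 228 CPM to 104, 92.8 and 111 CPM (-0.89, adjusted p = 0.00603). So did the nucleoside transporter Slc29a1 (-0.94, adjusted p = 0.00172). The falls of Slc16a3 (-1.36) and Slc7a6 (-0.55) lost their calls with 1 library left out, namely Slc16a3 (adjusted p = 0.0573 without mutant replicate 3) and Slc7a6 (adjusted p = 0.0670 without mutant replicate 3). Of 15 tested BCL2 family genes, 4 were higher and 3 lower (median -0.15), and with a library left out the higher count ran from 1 to 4 and the lower count from 1 to 3. The lowest higher count came without WT CD4 SP replicate 3 or mutant replicate 1, and the lowest lower count without mutant replicates 2 or 3. Bmf, a pro-apoptotic BH3-only gene, rose from 0.320, 0 and 1.78 CPM to 13.1, 29.6 and 27.8 CPM (5.07 ± 1.11, adjusted p = 0.00620; 4.47 without WT CD4 SP replicate 2 and 7.19 without WT CD4 SP replicate 3). Bcl2a1d, an anti-apoptotic gene with near-identical copies, fell (-2.23, adjusted p = 0.00198). Bcl2 itself was not called (258, 154 and 122 CPM against 188, 158 and 151 CPM, -0.10, adjusted p = 0.828). The other calls were rises of Bik (3.13; 2.54 without WT CD4 SP replicate 1 and 4.48 without WT CD4 SP replicate 2), Bcl2l11 and Mcl1 (0.93). Falls of Bax (-0.60) and Bcl2a1b (-1.61) completed them. Calls were lost for Bik (adjusted p = 0.0589 to 0.0717 without WT CD4 SP replicate 3 or mutant replicate 1) and Mcl1 (adjusted p = 0.0612 to 0.136 without WT CD4 SP replicates 1 or 3 or any mutant replicate). They were also lost for Bax (adjusted p = 0.0712 to 0.0788 without mutant replicates 2 or 3) and Bcl2a1b (adjusted p = 0.0562 to 0.148 without WT CD4 SP replicates 2 or 3 or any mutant replicate).

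Of 30 tested interferon response genes, 14 fell and 2 rose (median -0.59), and the lower count ran from 10 to 14 with each library left out. The share that rose was below the 8.91% of all genes tested. Oasl2 went from 46.6, 66.7 and 65.1 CPM to 23.2, 13.8 and 13.9 CPM (-1.81 ± 0.30, adjusted p = 8.67e-04). Ifih1, the RNA sensor MDA5, went from 37.2, 38.3 and 35.7 CPM to 19.5, 18.5 and 17.3 CPM (-1.01 ± 0.15, adjusted p = 3.54e-04). Rtp4 went from 206, 213 and 285 CPM to 115, 107 and 114 CPM (-1.07, adjusted p = 0.00145). These 3 did not differ by a call from WT CD8 SP cells (adjusted p = 0.724, 0.400 and 0.874). Oas1a fell as well (-1.62, adjusted p = 0.00121). The rises were Ifi27 (91.3, 106 and 109 CPM against 147, 159 and 158 CPM, 0.60, adjusted p = 0.00581) and Mx1 (1.29, adjusted p = 0.0185). The call was lost for Mx1 (adjusted p = 0.0569 to 0.0811 without WT CD4 SP replicates 1 or 3 or mutant replicate 3). Among 24 tested genes of MHC class I and antigen processing, 3 were higher, a share near the 8.91% of all genes tested, and 6 lower (median -0.16). The lower count was 6 without WT CD4 SP replicate 1 or 2, but 1 to 3 without any other library. Tapbpl, a peptide editor, rose (112, 125 and 128 CPM against 193, 233 and 259 CPM, 0.91, adjusted p = 1.91e-04). The proteasome activator gene Psme2 fell (546, 556 and 779.5 CPM against 342, 344 and 374 CPM, -0.83, adjusted p = 0.00866). The rise of Canx (0.53) and the fall of Psmb10 (-0.64) lost their calls with some library left out. This held for Canx (adjusted p = 0.129 to 0.166 without WT CD4 SP replicates 1 or 3 or mutant replicates 2 or 3). It held as well for Psmb10 (adjusted p = 0.0525 to 0.0832 without WT CD4 SP replicate 3 or mutant replicates 1 or 2). B2m, the gene the hosts lack, was not called between these donor-derived cells (1316, 1761 and 1529 CPM against 1525, 1865 and 1902 CPM, 0.20, adjusted p = 0.333).

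Of 19 tested genes of effector and memory T cells, 7 were lower, 2 higher and 10 not called (median -0.77). The higher share was near the 8.91% of all genes tested. The lower count ran from 5 to 8 with each library left out. Lgals1, which encodes galectin 1, went from 50.0, 61.5 and 77.9 CPM to 11.5, 7.91 and 10.3 CPM (-2.67 ± 0.18, adjusted p = 1.31e-07). Anxa2, a membrane-binding annexin, went from 29.7, 24.7 and 26.7 CPM to 4.29, 3.87 and 3.34 CPM (-2.81 ± 0.21, adjusted p = 4.14e-07). Crip1, a LIM-domain protein, went from 187, 220.3 and 257 CPM to 95.1, 69.5 and 69.3 CPM (-1.51, adjusted p = 1.49e-05). The intermediate filament gene Vim fell by less (-0.70, adjusted p = 2.02e-04). WT CD8 SP cells were above the mutant cells for all 4 (adjusted p = 3.58e-09, 1.51e-08, 9.64e-07 and 3.66e-07). The members that rose were S100a11 (10.7, 22.9 and 13.7 CPM against 35.5, 50.0 and 47.5 CPM, 1.49, adjusted p = 5.84e-04) and Ly6c2 (1.10, adjusted p = 0.00427), whose reads can be shared with Ly6c1.

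**Figure D4:**
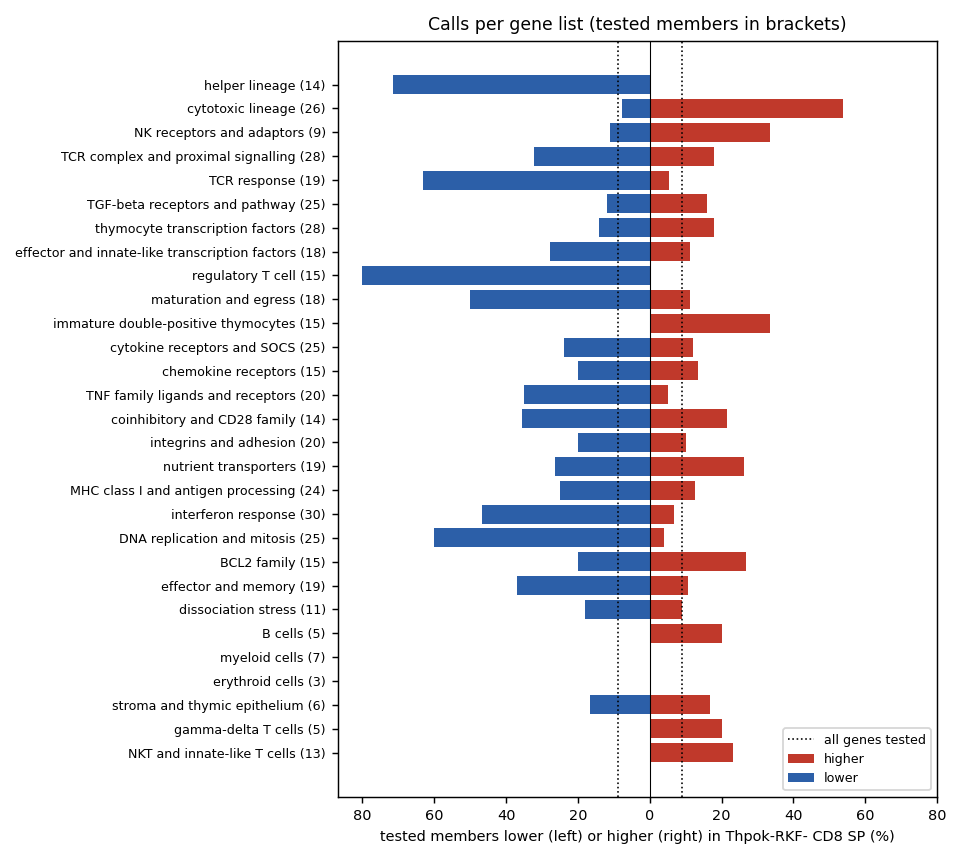
Share of tested members of each of 29 gene lists called lower (blue, to the left) or higher (red, to the right) in mutant CD8 SP cells, with the number tested in brackets; dotted lines mark the shares over all genes tested (8.75% lower, 8.91% higher). Bars of the helper, regulatory T cell, TCR response and DNA replication lists extend far to the left, and that of the cytotoxic list far to the right.

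Markers of other cells the gates could hold gave the following values, to be set beside the 17.7% called over all genes tested. Of B cell genes, Ms4a1 was at 0 in all 6 libraries. The summed B cell level was 577 to 849 CPM in WT CD4 SP and 749 to 1016 CPM in mutant libraries, most of it Ighm. Without Ighm it was 40.9 to 45.4 CPM and 28.9 to 35.8 CPM. Of 5 tested members 1 rose, the signalling chain Cd79b (1.60, 1.68 and 0.434 CPM against 6.83, 5.47 and 6.20 CPM, 2.31, adjusted p = 0.00192). It was higher still in WT CD8 SP cells (41.2, 39.1 and 42.8 CPM). No myeloid (7 tested) or erythroid (3 tested) gene was called by edgeR or by DESeq2, 1 myeloid and 0 erythroid genes had an unadjusted p under 0.05, and Cd14 was at 0. The summed myeloid level was 4.49 to 39.6 CPM in WT CD4 SP and 3.12 to 9.36 CPM in mutant libraries. The high value was that of WT CD4 SP replicate 1, where Lyz2, the macrophage lysozyme gene, was at 28.4 CPM. Of stromal genes, Col3a1, Krt5 and Foxn1 were at 0. The summed stromal level was 261 to 313 CPM in WT CD4 SP and 227 to 248 CPM in mutant libraries, most of it Pecam1. Without Pecam1 it was 8.57 to 8.98 CPM and 10.5 to 14.0 CPM. Col1a1 had 0 counts in WT CD4 SP and 100 in mutant cells (at least 33.4-fold higher). Cdh5 had 67 counts in WT CD4 SP and 1 in mutant cells, a ratio of 66.9 with an exact 95% counting interval of 11.6 to 2682. The call of Cdh5 was lost (adjusted p = 0.0648 to 0.0693 without mutant replicates 2 or 3). Of gamma-delta T cell genes 1 of 5 tested rose, the kinase gene Blk, with 0 counts in WT CD4 SP and 357 in mutant cells (at least 119-fold higher), also near 0 in WT CD8 SP cells (0, 0 and 0.256 CPM). Of 13 tested NKT and innate-like T cell genes, 3 rose and 0 fell: Cd160, Ly6c2 and Slamf1 (42.7, 46.5 and 54.8 CPM against 73.4, 89.5 and 77.7 CPM, 0.74, adjusted p = 0.00194). At an unadjusted p under 0.05 1 member of this list was lower, and 0 were lower by DESeq2. The summed level of the list was 359 to 451 CPM in WT CD4 SP, 499 to 573 CPM in mutant and 1221 to 1354 CPM in WT CD8 SP libraries. Genes induced by tissue dissociation gave 1 rise, a share near the 8.91% of all genes tested, and 2 falls in 11 tested members. There were 4 falls without mutant replicate 1 and 6 without the libraries numbered 1. The chaperone gene Hsph1 rose (0.46, adjusted p = 0.0137). Its call was lost (adjusted p = 0.0727 to 0.0785 without WT CD4 SP replicate 3 or mutant replicate 1). The early genes Ier2 (-0.98, adjusted p = 0.00349) and Zfp36 (-0.80, adjusted p = 7.75e-04) fell. Jun was at 105, 4.54 and 3.54 CPM in the mutant cells and 33.7, 7.74 and 7.39 CPM in WT CD4 SP, high in mutant replicate 1, and was not called (1.21, adjusted p = 0.583). The part of these markers in the results was not tested.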

How the data were processed

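RNA was sequenced from sorted mature thymocytes in 5 groups of 3 libraries. Per the labels' protocols, libraries were made with SMARTer Ultra Low Input reagents and read as 101 bp pairs. Tools listed in the submitters' processing notes, with no roles, are DESeq2, HTSeq, STAR, Trimmomatic and bcl2fastq 2.17, and the build listed is mm39. Annotation and strand setting were not given in the sources used here. Raw counts per gene were deposited by the authors for each library and as 1 series table, and the 15 single-library files were identical to the series table. The deposited CPM values, scaled by the authors to each library's gene total, gave whole counts in 100% of cases (tolerance 0.01), equal to the deposited counts. A count test on these recovered counts called 2922 genes. Each series table held 3 further columns that were not used. The 5 summary lines that name no gene, 16.1% to 19.6% of reads in the 6 libraries compared, were left out.

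Counts were tested with edgeR 4.0.16 (R 4.3.3; TMM, expression filter with minimum count 10 and total 15, quasi-likelihood F test). All 15 libraries entered 1 model of group means, which kept 16550 of 53762 genes, with Benjamini-Hochberg adjustment at 0.05. Standard errors follow from the log2 fold change and F. CPM levels use TMM-scaled library sizes. A fold against 0 counts used a floor of 3 counts over the group; floors and intervals cover counting error only. Replicates differed by more than sampling noise. In mutant CD8 SP the chi-square per degree of freedom was 55.8 and 57.6 for pairs with library 1 and 19.5 for libraries 2 and 3. In WT CD4 SP it was 44.0 for libraries 1 and 2 and 91.9 and 87.2 for pairs with library 3. Over all genes, deviations of same-numbered libraries correlated at -0.0138, -0.0422 and 0.0135. With 3 libraries per group these values cannot decide whether the numbers pair libraries. The test was checked on simulated data with known changes, where fitted fold changes were close to those set and the share of false calls was above the 0.05 of the adjustment.

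The comparison and the 29 gene lists were chosen with earlier results of these data known. Of 464 listed symbols, 3 (gamma-delta T cells) matched no gene. Lists are described by counts and medians, with no set test. Eng, Itgae, Slc6a19, Cd5, Gata3, Zbtb7b, Runx3 and the coreceptor genes were named in any case. The rule further took the 12 largest rises and the 12 largest falls (called, mean log2 CPM at least 3, no overlap of groups), up to 4 called members of each list by smallest adjusted p, and the 6 genes farthest above and the 6 farthest below both WT groups. The ranked parts skip segments of antigen receptors, Gm and Rik models, Y-linked genes and Xist. Named after their values were seen were Acvrl1, B2m, Bcl2, Bcl2a1b, Bcl2l11, Btla, Canx, Cbfb, Cbl, Ccr4, Ccr7, Cd2, Cd28, Cd3e, Cd40lg, Cd69, Cdt1, Cst7, Ctla4, Dapl1, Dusp2, Eomes, Fasl, Ifi27, Il2ra, Il6ra, Il7r, Irf4, Itgb2, Izumo1r, Jun, Khdrbs3, Lck, Ly6c1, Lyz2, Mcl1, Mcm2, Mcm6, Mx1, Nfkbid, Nr4a1, Nr4a2, Nr4a3, Pdcd1, Pim1, Ptcra, Ptgir, Ptpn6, Rag1, Runx1, Runx2, S100a11, Satb1, Skil, Slc16a10, Slc16a3, Slc38a2, Slc3a2, Slc7a5, Slc7a6, Smad3, St8sia6, Stat4, Tcf3, Tcf7, Tgfbr1, Tgfbr2, Tnfrsf1a, Top2a and Tox. Some genes that the rule took are not reported here. Promoter windows were matched by symbol to RefSeq on GRCm38.p6, since no mm39 genome was used here.

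The alternatives were size factors by relative log expression, no filter, DESeq2 1.42.0, only the 2 groups in the fit, the replicate number as a block, limma-trend (limma 3.58.1) on log2(CPM + 1), a required 2-fold change, leaving out or adding a term for the libraries numbered 1, and each library left out. Counts recovered from the CPM values, and the alternatives for the comparison with WT CD8 SP cells, were added after the data were seen.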

Additional observations from a re-analysis of the deposited data

How the results depend on the processing

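Of 151 called genes taken for naming, 151 kept their direction under each alternative except the fit of only the 2 groups, which tested 149 of them. They kept their calls in 151 cases with relative log expression size factors, 145 without the low-count filter, 147 with DESeq2, 139 with only the 2 groups, 147 with limma-trend, 144 without the libraries numbered 1, 130 to 144 with a library left out and 72 with a required 2-fold change. The required 2-fold change aside, genes whose loss is not given in the results were Amigo2 (adjusted p = 0.287) and Ly6c2 (adjusted p = 0.0519) with DESeq2, Klrd1 (adjusted p = 0.0703) and Ly6c2 (adjusted p = 0.0524) with only the 2 groups, and Col1a1 (adjusted p = 0.0510) with limma-trend. Over all genes, the size factors, no filter, DESeq2, only the 2 groups and limma-trend called from 2773 to 3392 genes. A required 2-fold change left 434 genes, 239 higher and 195 lower, and 585 genes against WT CD8 SP cells. Leaving out a library gave 1613 to 2669 called genes, 788 to 1326 higher and 825 to 1363 lower. Without the libraries numbered 1 the test called 3531 genes (1536 higher and 1995 lower), and with a term for them 3987. Whether the replicate numbers pair the libraries is not known. With the replicate block the test called 3687 genes, and 151 of the 151 genes taken for naming kept their call. Depth limits genes near 0 counts, such as Klrk1 and Syt10, more than the others.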
